A study of Mus musculus with 16 samples.

Results

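Splice isoforms A and B of MALT1 were compared in T cells stimulated through CD3 and CD28 for 2.5 h, on 8 of the 16 arrays of the study. The 8 arrays were taken by their titles, 4 of isoform A stimulated and 4 of isoform B stimulated cells, and paired by replicate number, which stands for 1 of 4 mice. All groups held CD4+ T cells from MALT1 deficient mice of the C57BL/6 background, so the only MALT1 given back was the one carried by retrovirus. Each mouse supplied isoform A stimulated, isoform B stimulated, mock stimulated and isoform A unstimulated cells, 1 array each. The age of the mice and the amount of protein made from each retrovirus are not given in the sources used here, and isoform sequence and isoform amount cannot be told apart in these arrays.

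MALT1 is a paracaspase that acts with BCL10 downstream of the T cell receptor. As a scaffold it recruits TRAF6 and leads to activation of the IKK kinases and NF-kB, and as a protease it cleaves inhibitors of signalling and regulators of mRNA decay. The isoforms differ by 1 short alternatively spliced exon, which isoform A keeps and isoform B lacks, and which adds a binding motif for TRAF6.

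RNA was measured on Illumina bead arrays, on which a gene is read by 1 or more probes. Levels below are log2 normalized intensities of 1 probe per gene. Differences are isoform A minus isoform B on that log2 scale unless another pair is named. An error after ± is the standard error (SE) of the fit with n = 4 mice per group. The fit takes its spread from all 16 arrays, unstimulated ones included, so the SE does not measure the spread of the 4 differences within mice. A level cannot be set against that of another gene, because probes differ in brightness. The 12 stimulated arrays had 10247 to 11012 detected probes of 25697, and 8480 genes were tested. Summed levels of 12 T cell markers were 15.7 to 15.8 in isoform A, isoform B and mock cells alike, 6 of 8 B cell markers and 11 of 13 macrophage and dendritic cell markers on the array were below background, and no member of any marker list passed the test. The 2 macrophage and dendritic cell markers measured, Fcer1g and Ctss, had summed levels of 9.26 to 10.4 in isoform A, 9.4 to 10.3 in isoform B and 9.36 to 10.5 in mock cells. Their median difference was 0.14, -0.21, 0.27 and 0.27 within mice 1 to 4. The part of such cells in the differences was not tested. Of 13 CD8 and cytotoxic lymphocyte markers on the array 9 were measured, with summed levels of 14.0 to 14.6 in isoform A, 14.2 to 14.6 in isoform B and 13.8 to 14.5 in mock cells, while Cd8a, Gzmb, Gzmk and Ncr1 were below background. Array signal comes from bulk RNA, so a lower value can mean fewer cells with a transcript or less of it per cell, and these cannot be told apart.

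Before any result, the isoform A arrays of mice 3 and 4 stood apart from the other arrays. In 2201 genes with 2 or more detected probes, the gap between 2 probes of a gene departed by more than 1 from its median over the stimulated arrays in 33 genes on the isoform A array of mouse 3 and in 43 on that of mouse 4, against 3 to 17 genes on the other 10 arrays. Eif4g2, a translation initiation factor, is an example chosen after its values were seen. One of its probes read 8.99, 9.08, 7.96 and 7.44 in isoform A cells of mice 1 to 4 and 9.14, 9.24, 9.10 and 9.01 in isoform B cells. The other probe read 6.92, 7.33, 7.47 and 7.64 in isoform A cells and 6.85, 6.81, 7.21 and 7.58 in isoform B cells, so only the first was low on those 2 arrays. The differences had a standard deviation over genes of 0.248 and 0.253 in mice 1 and 2, and of 0.341 and 0.357 in mice 3 and 4.

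**Figure D1:**
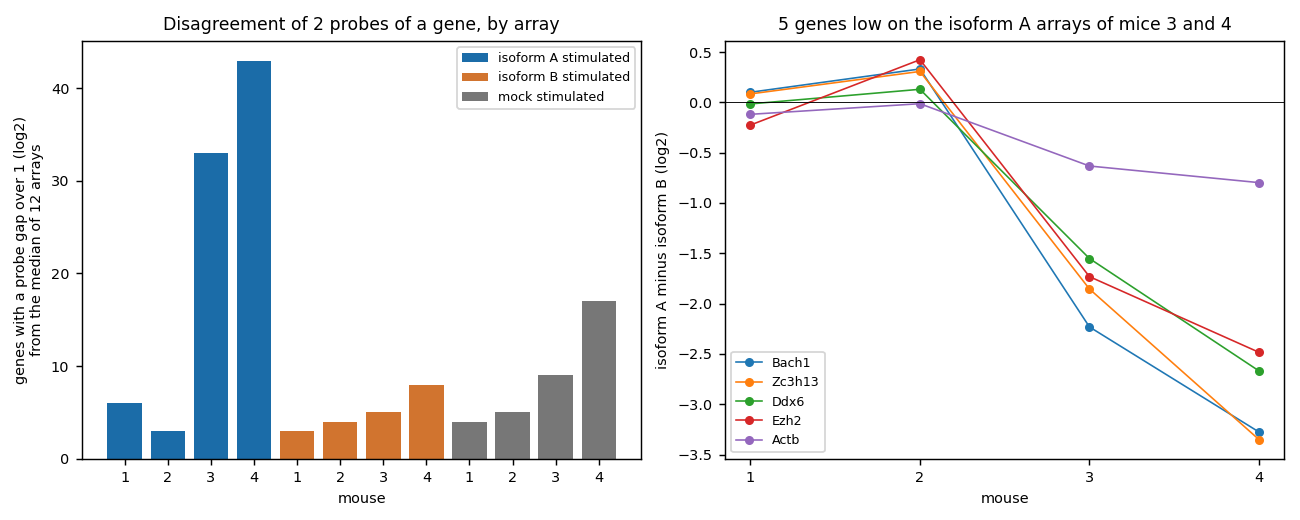
Left, the number of genes for which the gap between 2 probes departs by more than 1 (log2) from its median over the 12 stimulated arrays, by array. Right, the difference isoform A minus isoform B in each mouse for 5 genes. The isoform A arrays of mice 3 and 4 have 33 and 43 such genes, the other arrays 3 to 17, and the 5 genes lie farthest below 0 in mice 3 and 4.

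The comparison asked which transcripts differ between stimulated cells whose MALT1 holds the alternatively spliced exon and cells whose MALT1 lacks it. With isoform A, 3 of 9 chemokine, 6 of 21 NF-kB effector and 1 of 21 cytokine genes measured were higher, the cytokine gene Il23a being in both of the last lists. All gene lists were chosen with earlier results of these data known, so their shares describe the calls and are not independent support. Among the higher genes were Ccl9 (4.23-fold), Il23a (3.54-fold) and Il4i1 (3.27-fold), and a smaller group that includes Sox21 (2.02-fold lower) was lower. In all, 46 genes passed an adjusted p of 0.05, which is 0.542% of the 8480 tested, 34 of them higher (0.401%) and 12 lower (0.142%) with isoform A. All 46 differed in the same direction in 4 of 4 mice. In 39 of the 46 the 4 isoform A levels and the 4 isoform B levels did not overlap, against 342 genes (4.03%) without overlap among all tested. A difference of 1 or more on the log2 scale was seen in 8 of the higher and 1 of the lower genes, and an unadjusted p under 0.05 in 1161 genes (13.7%). The genes nearest the threshold were Cdkn2b (0.50) and Zfp710 (-0.76) inside it, both with an adjusted p of 0.0461, and Trip10 (0.55) and A730008H23Rik (-0.44) outside it, both with 0.0562.

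**Figure D2:**
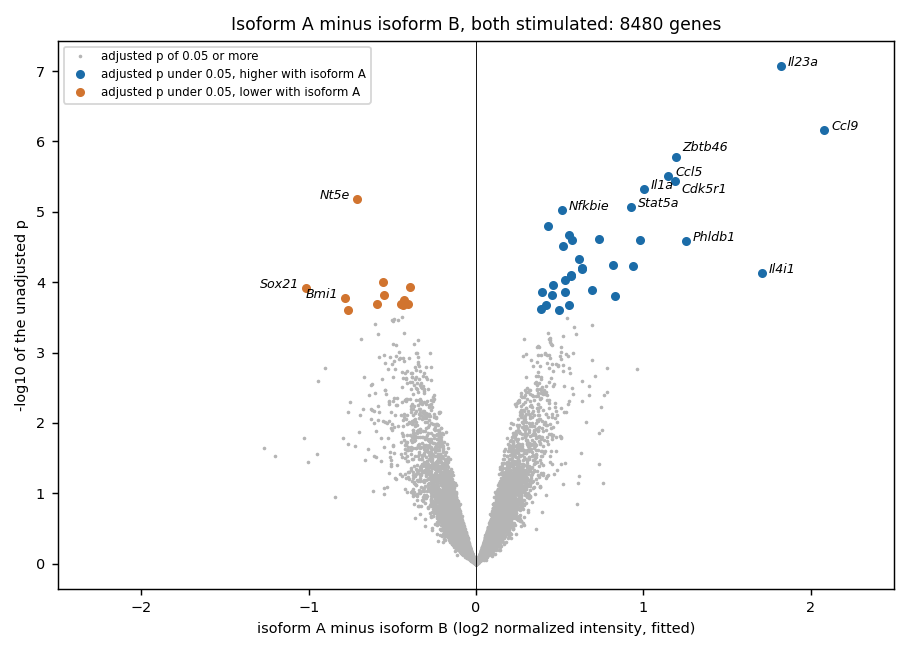
Fitted difference isoform A minus isoform B (log2, x axis) against -log10 of the unadjusted p (y axis) for 8480 genes. Blue points are the 34 genes higher and orange points the 12 genes lower with isoform A at an adjusted p under 0.05, with Ccl9 and Il23a farthest to the right.

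The count moved with the arrays that entered the fit. Without the isoform A array of mouse 3 the count was 13, and without those of mice 3 and 4 it was 6 (Ccl9, Il23a, Zbtb46, Cdk5r1, Il1a and Nt5e). Of these, Il1a entered the test only because it was above background on the isoform A arrays. With only the 12 stimulated arrays 3 genes passed (Ccl9, Il23a and Ccl5), and with the 8 arrays alone 0 passed in limma, 1041 having an unadjusted p under 0.05. Without mouse 2 the count was also 0, with 1191 at an unadjusted p under 0.05, without mouse 3 it was 1 (Il23a), without mouse 4 it was 8 and without mouse 1 it was 26. The direction of none of the 46 differences changed in these settings. As all 46 had 1 sign in all 4 mice, leaving out mice could not change it, so this is no separate support.

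Chemokines, the secreted attractants of leukocytes, gave 3 of the 34 higher genes. Ccl9, a CC chemokine of the mouse, had levels of 10.13, 10.51, 11.49 and 10.27 in isoform A cells of mice 1 to 4, 9.11, 8.05, 8.94 and 7.98 in isoform B cells and 7.07, 6.67, 7.36 and 7.06 in mock cells. Every isoform A level was above every isoform B level, and every isoform B level above every mock level. The difference was 2.08 ± 0.24 (adjusted p = 0.00291). Ccl5, an attractant of T cells and monocytes, had 12.12, 11.91, 12.73 and 11.98 in isoform A cells, 11.31, 10.96, 11.37 and 10.49 in isoform B cells and 10.98, 10.58, 11.56 and 10.88 in mock cells. Isoform A lay above both other groups, while isoform B and mock levels overlapped. Its difference was 1.15 ± 0.15 (adjusted p = 0.00627), and isoform B minus mock was 0.03 (adjusted p = 0.948). Cxcl2, which attracts neutrophils, had 5.64, 6.71, 5.93 and 5.83 in isoform A cells and 5.00, 5.24, 4.93 and 5.01 in isoform B cells, with a difference of 0.98 ± 0.16 (adjusted p = 0.0148). Isoform A levels were again all higher, and the probe was above background on 4 isoform A, 3 isoform B and 0 mock arrays. Of 9 chemokines measured these 3 passed, all higher, against 0.401% of all genes tested, and 3 others lay below 0 without passing. The median over the 9 was 0.18, against 0.00195 over all genes. Within mice 1 to 4 the list median was 0.13, 0.16, 0.86 and 0.46. Without the isoform A arrays of mice 3 and 4, Ccl9 alone of the 3 passed, and the list median was 0.24. Cxcl9, an interferon-inducible chemokine, differed by 0.69 ± 0.15 without overlap and had an adjusted p of 0.0648.

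Of 21 cytokine genes, 1 passed, and their median was 0.15. It was Il23a, the subunit of the cytokine IL-23 that is not shared with IL-12, with levels of 7.94, 7.94, 8.67 and 7.34 in isoform A cells, 6.08, 5.94, 6.51 and 6.06 in isoform B cells and 5.55, 5.71, 6.35 and 5.90 in mock cells. All isoform A levels were above the isoform B levels, and isoform B and mock levels overlapped. The difference was 1.82 ± 0.18 (adjusted p = 0.000711), 1.86 within mouse 1, 2.00 within mouse 2, 2.15 within mouse 3 and 1.27 within mouse 4. Outside that list, Il1a, the inflammatory cytokine interleukin-1 alpha, had 5.53, 6.07, 5.85 and 5.09 in isoform A cells and 4.58, 4.63, 4.59 and 4.71 in isoform B cells. Its probe was above background on 4 isoform A arrays and on no isoform B, mock or unstimulated array. Il1a was thus at least 1.55-fold higher with isoform A (adjusted p = 0.00660). Those 4 arrays alone brought it past the detection filter, so that p-value is no separate support. Clcf1, a cytokine of the interleukin-6 family, was higher by 0.53 ± 0.10 (adjusted p = 0.0369). Csf2, Lif and Tgfb1 differed by 0.29, 0.51 and 0.31 and did not pass.

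**Figure D3:**
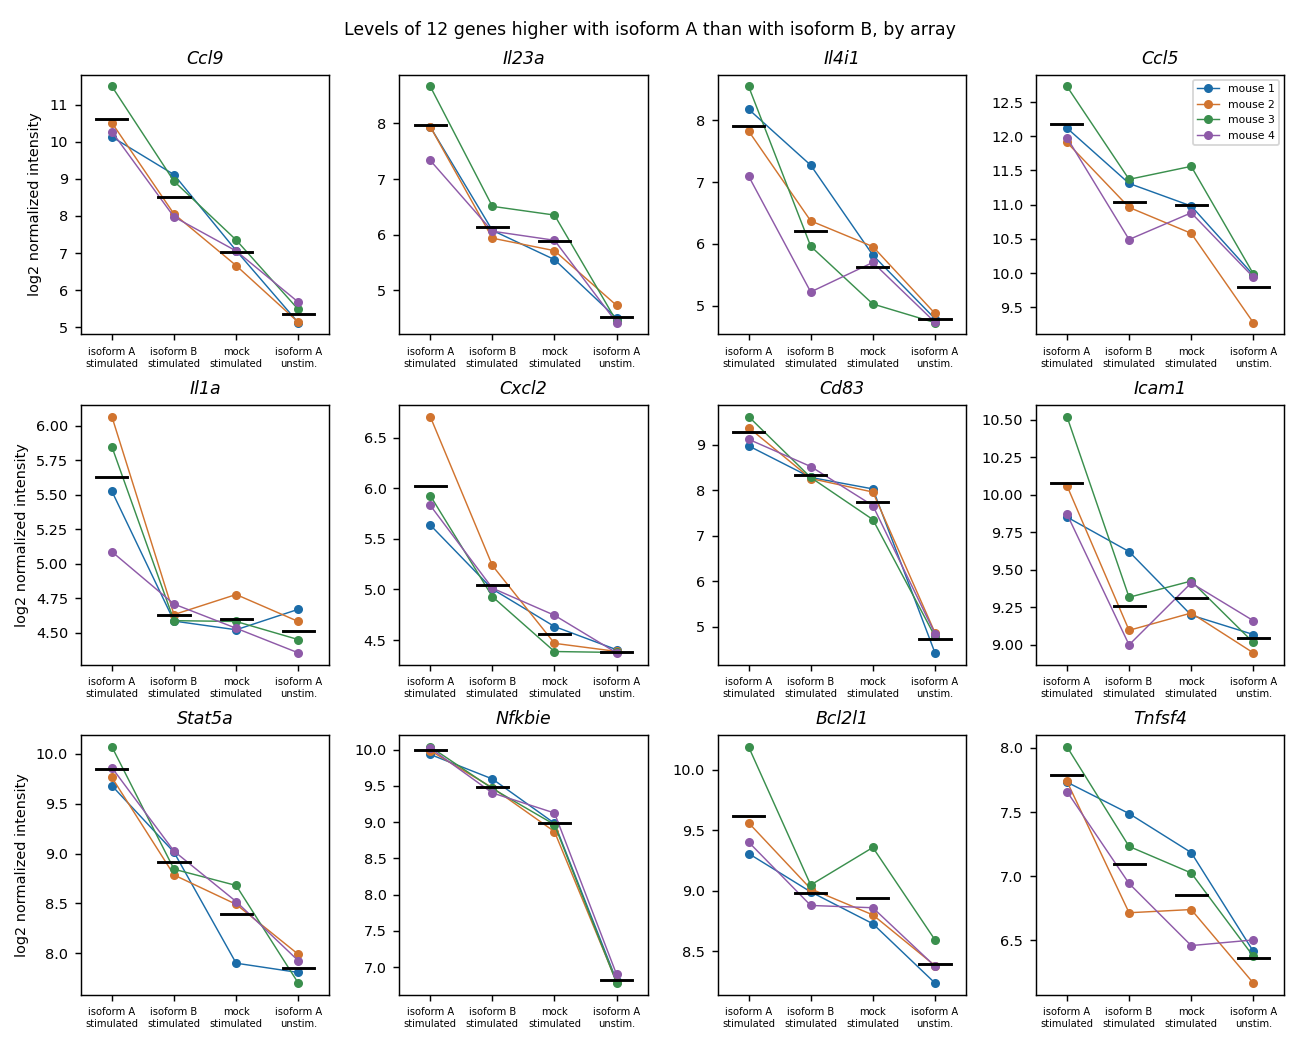
Log2 normalized intensity (y axis) of 12 genes on each array of the 4 groups (x axis), with the 4 mice in 4 colours joined by lines and black bars at group means. In each panel the mean with isoform A is the highest of the stimulated groups, and only Il4i1 shows overlap between isoform A and isoform B levels.

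Of the 33 gene lists, the NF-kB effector genes held the most members past the threshold, 6 of 21 measured, all higher, against 34 of 8480 genes (0.401%) in all, with a list median of 0.28. Besides Il23a they were Il4i1, Stat5a, Cd83, Icam1 and Bcl2l1. Because this list too was chosen with earlier results of these data known, its share is a description only. Il4i1 is a secreted amino acid oxidase and had 8.18, 7.83, 8.55 and 7.10 in isoform A cells against 7.27, 6.37, 5.96 and 5.22 in isoform B cells. It was higher in each mouse, but the groups overlapped, since isoform B of mouse 1 lay above isoform A of mouse 4 (1.71 ± 0.30, adjusted p = 0.0282). Stat5a, a transcription factor of cytokine receptors, had 9.68, 9.76, 10.07 and 9.86 in isoform A cells, 9.01, 8.79, 8.84 and 9.02 in isoform B cells and 7.90, 8.49, 8.68 and 8.52 in mock cells. The 3 groups did not overlap, and the difference was 0.93 ± 0.13 (adjusted p = 0.00893). Cd83, a surface protein of activated lymphocytes, had 8.98, 9.38, 9.63 and 9.13 in isoform A cells and 8.29, 8.26, 8.29 and 8.53 in isoform B cells (0.94 ± 0.16, adjusted p = 0.0264). The adhesion molecule Icam1 had 9.85, 10.06, 10.52 and 9.87 in isoform A cells and 9.62, 9.10, 9.32 and 9.0 in isoform B cells (0.82 ± 0.14, adjusted p = 0.0264), and for both genes all isoform A levels were the higher ones. Bcl2l1, which encodes the survival factor BCL-XL, had 9.31, 9.56, 10.19 and 9.40 in isoform A cells and 8.99, 9.02, 9.05 and 8.88 in isoform B cells (0.63 ± 0.11, adjusted p = 0.0264). Mouse 3 with isoform A was the highest of its 8 levels. Without the isoform A arrays of mice 3 and 4, Il23a alone of these 6 passed, and the list median was 0.32.

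Among the NF-kB subunits and inhibitors 1 of 10 passed, with a list median of 0.23. Nfkbie, the inhibitor I kappa B epsilon, had 9.93, 9.99, 10.04 and 10.02 in isoform A cells, 9.60, 9.47, 9.46 and 9.40 in isoform B cells and 8.98, 8.87, 8.97 and 9.13 in mock cells. The groups did not overlap, the spread within each was small, and the difference was 0.51 ± 0.07 (adjusted p = 0.00903). Nfkbiz, Bcl3 and Relb differed by 0.30, 0.39 and 0.26 and did not pass. Of 12 ubiquitin editors and other feedback regulators, Tnip1, a partner of the deubiquitinase A20, was higher by 0.43 ± 0.07 (adjusted p = 0.0136). Its levels overlapped between the groups, at 9.54, 9.44, 9.81 and 9.74 in isoform A cells and 9.08, 8.99, 9.48 and 9.26 in isoform B cells, but the 4 differences within mice lay between 0.33 and 0.49. Tnfaip3, which encodes A20, differed by 0.45 ± 0.12 without overlap and had an adjusted p of 0.123. Of 19 genes of MALT1 partners and IKK signalling, the adaptor gene Traf1 alone passed, at 10.75, 10.87, 11.01 and 10.68 in isoform A cells and 10.47, 10.20, 10.22 and 10.14 in isoform B cells (0.57 ± 0.10, adjusted p = 0.0286). The isoform A levels were all above the isoform B levels. Of 10 measured genes listed as MALT1 protease substrates none passed, and 8 lay above 0 with a median of 0.18. Malt1 itself had 1 probe, above background on 1 isoform A and no isoform B array, so the transgenes were not checked by it.

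Promoter windows were searched for the NF-kB consensus because 6 of the 34 higher genes are in the NF-kB effector list, while 20 are in no list. RefSeq windows of build GRCm38.p6, from 250 bases before to 50 after a start, were matched for 24 of the 34 higher and 11 of the 12 lower genes. The NF-kB consensus, searched on both strands, was held by 7 of 28 windows of the higher genes (25%), 0 of 11 of the lower genes, 469 of 8956 of the genes tested (5.24%) and 1480 of 32851 in the table (4.51%). The AP-1 motif TGANTCA was held by 5 of 28 windows of the higher genes (17.9%), 0 of 11 of the lower genes, 492 of 8956 of the genes tested (5.49%) and 2565 of 32851 in the table (7.81%). Both motifs were searched separately, with no overlap rule between them. The genes with an NF-kB consensus match were Ccl9, Cxcl2, Stat5a, Bcl2l1, Chd4, Nfkbie and Tnip1, and a match in letters is not a bound site. The 3 with the largest differences follow, 5′ to 3′ on the strand of the gene, with the match in capitals. Ccl9 lies at chr11:83578587-83578886 on the minus strand, Cxcl2 at chr5:90903649-90903948 and Stat5a at chr11:100860234-100860533 on the plus strand. The capitals start 35 bases before the start of Ccl9, 97 before that of Cxcl2, where 2 matches overlap, and 234 before that of Stat5a.
Ccl9: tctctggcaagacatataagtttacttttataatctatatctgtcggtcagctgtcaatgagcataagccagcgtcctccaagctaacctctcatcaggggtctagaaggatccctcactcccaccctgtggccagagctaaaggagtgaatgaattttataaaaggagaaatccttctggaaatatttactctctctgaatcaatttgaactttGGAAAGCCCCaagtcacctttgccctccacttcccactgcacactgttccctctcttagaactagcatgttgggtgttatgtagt
Cxcl2: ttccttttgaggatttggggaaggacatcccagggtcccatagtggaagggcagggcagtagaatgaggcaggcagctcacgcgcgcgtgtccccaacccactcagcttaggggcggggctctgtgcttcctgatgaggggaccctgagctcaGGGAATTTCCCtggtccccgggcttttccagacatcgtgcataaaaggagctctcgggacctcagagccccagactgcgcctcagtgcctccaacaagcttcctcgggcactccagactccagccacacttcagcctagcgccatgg
Stat5a: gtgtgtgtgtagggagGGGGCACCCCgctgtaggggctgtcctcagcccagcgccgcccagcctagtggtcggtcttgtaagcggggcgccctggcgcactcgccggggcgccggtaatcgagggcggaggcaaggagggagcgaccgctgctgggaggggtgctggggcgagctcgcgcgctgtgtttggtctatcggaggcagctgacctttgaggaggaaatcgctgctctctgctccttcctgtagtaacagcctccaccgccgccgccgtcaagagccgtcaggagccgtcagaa

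Costimulatory and signalling genes gave single calls. Tnfsf4, the OX40 ligand of the TNF superfamily, had 7.73, 7.74, 8.01 and 7.66 in isoform A cells and 7.49, 6.71, 7.23 and 6.94 in isoform B cells (0.69 ± 0.13, adjusted p = 0.0369). The groups did not overlap, and it was the only one of 19 TNF superfamily ligands and receptors past the test. Its relative Cd70 differed by 0.76 ± 0.22 with an adjusted p of 0.145. Dusp16, a phosphatase of JNK, was the only one of 12 MAPK feedback regulators to pass (0.53 ± 0.10, adjusted p = 0.0311). Stat5a alone passed among 27 cytokine receptor and JAK-STAT genes. The BCL2 family list (15 genes) and the list of Regnase-1 and Roquin target mRNAs (14 genes) each held Bcl2l1 and no other call.

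Outside the lists, 20 genes were higher, among them Il1a and Clcf1, given above, and 3 transcription factors. Zbtb46, a zinc finger factor known from dendritic cells of the mouse, had 6.36, 6.26, 6.60 and 6.01 in isoform A cells and 5.52, 4.92, 4.73 and 5.28 in isoform B cells (1.20 ± 0.15, adjusted p = 0.00470). Its probe was above background on 4 isoform A arrays and 2 isoform B arrays, and the groups did not overlap. Foxp4, of the forkhead family, was higher by 0.73 ± 0.12 (adjusted p = 0.0148), and Zeb1, a repressor, by 0.46 ± 0.09 (adjusted p = 0.0340). Cdk5r1, the activator of the kinase CDK5, had 9.51, 10.17, 10.17 and 9.39 in isoform A cells and 8.58, 8.73, 8.58 and 8.58 in isoform B cells (1.19 ± 0.16, adjusted p = 0.00627). All isoform A levels were higher. Phldb1, a protein with a pleckstrin homology domain, had 6.30, 6.87, 7.35 and 6.90 in isoform A cells and 5.53, 5.87, 5.31 and 5.68 in isoform B cells (1.25 ± 0.20, adjusted p = 0.0148), again without overlap, but 1 of its other probes differed by -0.14. Pdgfb, a growth factor, was higher by 0.63 ± 0.11 (adjusted p = 0.0264), and Gpt2, a mitochondrial alanine aminotransferase, by 0.61 ± 0.10 (adjusted p = 0.0234). Chd4, the helicase of the NuRD complex, was higher by 0.58 ± 0.09 (adjusted p = 0.0148), with another probe at -0.07. The cell cycle inhibitor Cdkn2b, the SNARE protein Stx6, the syntenin Sdcbp2, the kinase C substrate Marcks, the adaptor Dapp1, the deubiquitinase Usp22, the Mediator subunit Med11, the glucuronyltransferase B3gat3 and the genes Tpd52l2 and Fam83g were higher by 0.39 to 0.83. Of the 46 genes, 15 had other detected probes, and 20 of those 22 probes had the same sign as the probe tested. Sizes departed both ways. The other probe differed by 0.04 for B3gat3 (0.46 with the probe tested) and by -0.19 for Nt5e (-0.71 with the probe tested). Other probes of Clcf1 differed by 0.77 and 0.93 (0.53), and those of Dusp16 by 0.77 and 0.17 (0.53).

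The 12 lower genes belonged to none of the lists, which held only 454 of the 8480 genes tested. Sox21, an HMG box transcription factor, had 8.45, 8.35, 7.51 and 8.13 in isoform A cells, 8.70, 9.11, 8.97 and 9.72 in isoform B cells and 8.14, 8.43, 7.50 and 8.20 in mock cells. All isoform A levels lay below the isoform B levels, whereas isoform A and mock overlapped. The difference was -1.01 ± 0.19 (adjusted p = 0.0354). Nt5e, the ectonucleotidase CD73, had 4.87, 4.97, 5.34 and 5.69 in isoform A cells, 5.75, 5.64, 5.95 and 6.38 in isoform B cells and 8.43, 8.23, 8.69 and 8.92 in unstimulated cells (-0.71 ± 0.10, adjusted p = 0.00798). It was lower in each mouse, with overlap between mice and a probe above background on 2 of 4 isoform A arrays. Bmi1, a Polycomb subunit, had 6.84, 6.58, 5.92 and 6.20 in isoform A cells and 7.14, 7.14, 7.18 and 7.22 in isoform B cells (-0.79 ± 0.15, adjusted p = 0.0399). The isoform B levels were close together and above all isoform A levels, of which mouse 3 was the lowest. Card10, a scaffold protein gene, had 5.89, 5.78, 6.01 and 6.18 in isoform A cells and 6.46, 6.75, 6.45 and 6.43 in isoform B cells (-0.56 ± 0.10, adjusted p = 0.0320). Tgfbr2, a receptor chain for TGF-beta, had 10.87, 10.81, 10.51 and 10.77 in isoform A cells and 11.06, 11.12, 11.17 and 11.32 in isoform B cells (-0.43 ± 0.08, adjusted p = 0.0404). Neither gene overlapped. Plppr3, Auts2 and Synm, the last an intermediate filament gene, were below background on all 4 isoform A arrays. They were so on 0, 1 and 0 isoform B arrays, in that order. They were at least 1.20-fold (adjusted p = 0.0417), 1.19-fold (adjusted p = 0.0377) and 1.12-fold (adjusted p = 0.0417) lower with isoform A. No isoform A array helped them past the detection filter, so these p-values are no separate support. With a detection p under 0.01 asked for on at least 4 of the 8 arrays, they were not tested. Zfp710, a zinc finger gene, was lower by 0.76, and Slc46a3, a lysosomal transporter, Agfg2 and Slx4, a scaffold of DNA nucleases, were lower by 0.40 to 0.45. Without the isoform A arrays of mice 3 and 4, only Nt5e of the 12 passed.

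**Figure D4:**
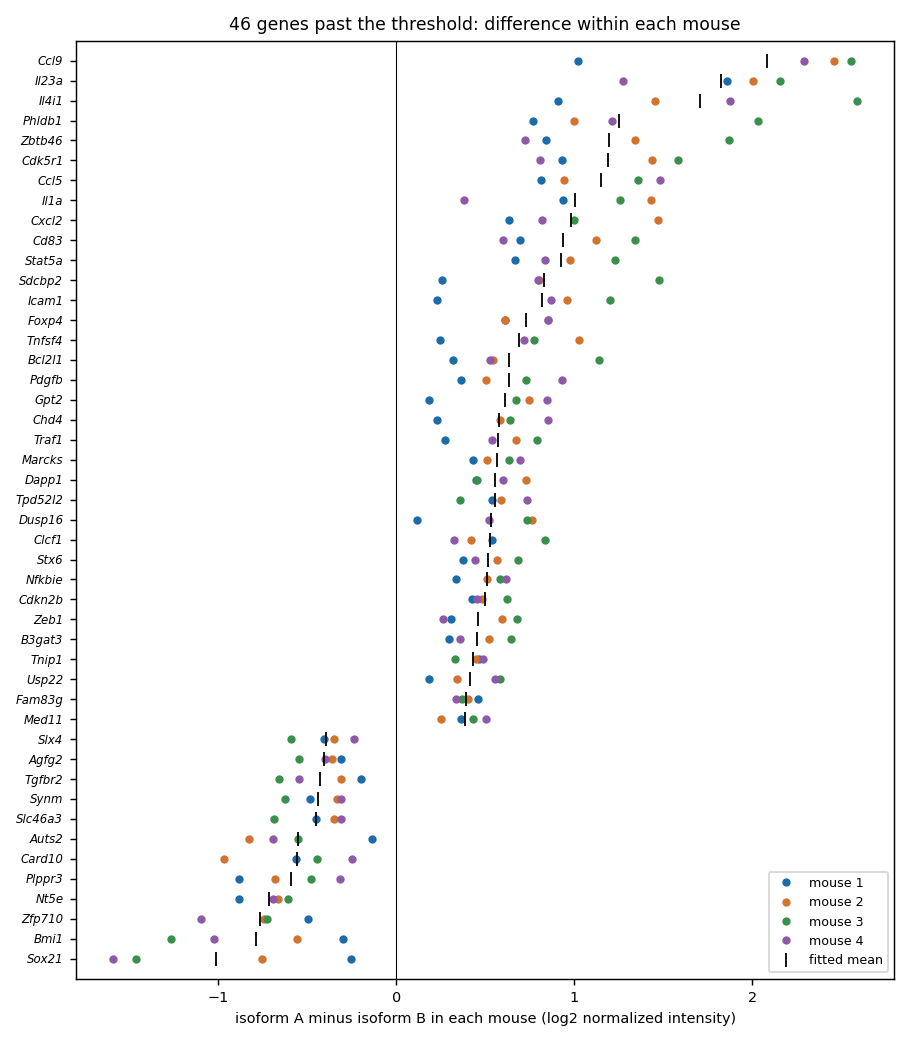
Difference isoform A minus isoform B within each mouse (coloured points, log2, x axis) and the fitted mean (black tick) for the 46 genes past the threshold (y axis), from the most positive at the top to the most negative at the bottom. All 4 points of each gene lie on 1 side of 0.

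Set beside mock cells, which had no MALT1 given back, the members of both groups varied. Isoform B minus mock and isoform A minus mock share arrays with each other and with the comparison above, so the values are given side by side only. Over the 34 higher genes, isoform A minus mock had a median of 0.77 and isoform B minus mock one of 0.13 (-0.77 to 1.48). Over the 12 lower genes the medians were -0.34 for isoform A minus mock and 0.12 for isoform B minus mock (-0.57 to 1.06). Over all genes tested, 745 (8.79%) passed for isoform A minus mock and 338 (3.99%) for isoform B minus mock, but without the isoform A arrays of mice 3 and 4 the counts were 189 for isoform A and 330 for isoform B. The summed level of 3 erythroid and granulocyte markers was 6.90 to 7.39 in isoform A, 6.66 to 7.14 in isoform B and 7.77 to 10.1 in mock cells, with the other 7 on the array below background, and their part in the values against mock was not tested.

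Some members departed from mock with isoform B as well. Isoform A minus mock was 3.56 and isoform B minus mock 1.48 for Ccl9. For Stat5a they were 1.45 with isoform A and 0.52 with isoform B, and for Nfkbie 1.01 with isoform A and 0.50 with isoform B. All 6 of these values passed. For Icam1 the values against mock were 0.76 with isoform A and -0.05 with isoform B, and for Traf1 0.48 with isoform A and -0.09 with isoform B, of which those of isoform A passed. Slc46a3 was lower than mock with both, by 1.02 with isoform A and 0.57 with isoform B, and both passed. Gpt2 was the one higher gene below mock with isoform B past the threshold (-0.77, adjusted p = 0.00106), and isoform A minus mock was -0.16 (adjusted p = 0.394). Its levels were 5.69, 5.72, 6.20 and 5.97 in isoform A cells, 5.51, 4.97, 5.53 and 5.12 in isoform B cells and 6.11, 5.87, 6.39 and 5.84 in mock cells. Isoform B lay below both other groups, which overlapped. For Sox21, isoform A minus mock was 0.04 (adjusted p = 0.919) and isoform B minus mock 1.06 (adjusted p = 0.00632), so its isoform B levels were the highest of the 3 stimulated groups. For Synm, isoform A minus mock was -0.01 (adjusted p = 0.965) and isoform B minus mock 0.43 (adjusted p = 0.0129).

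The members also differed in what stimulation did to them in isoform A cells, where 5939 genes (70.0%) passed. Stimulated and unstimulated arrays were quantile normalized together, which gives all arrays the same distribution. How far small differences between stimulated and unstimulated cells depend on that step was not tested. Over the 34 higher genes, isoform A stimulated minus unstimulated had a median of 1.35, from -0.87 to 5.24. Ccl9, Cd83 and Cdk5r1 were higher after stimulation by 5.24, 4.55 and 4.36 and passed. Tnip1 and Sdcbp2 were lower after stimulation by 0.87 and 0.67 and passed, and the stimulated level of both was higher with isoform A than with isoform B. Over the 12 lower genes the median was -0.09, with Sox21 at 3.50 and Agfg2 at -3.83 as the extremes. No isoform B unstimulated array was part of the groups, so whether the isoforms differed at rest was not tested.

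Of the 454 genes measured from the 33 lists, 14 were higher (3.08%) and 0 were lower, against 0.401% higher and 0.142% lower of all genes tested. The lists were chosen with earlier results of these data known. In 22 lists no member passed. Fos, the AP-1 subunit, had 9.90, 10.26, 9.83 and 10.17 in isoform A cells and 10.20, 10.69, 10.74 and 10.95 in isoform B cells, lower in each mouse but overlapping between mice (-0.61 ± 0.13, adjusted p = 0.0622). Of 12 AP-1 genes 9 lay above 0, with a median of 0.16, and none passed. Among 15 EGR and NR4A early response genes 13 lay below 0 with a median of -0.16, and none passed. The nuclear receptor gene Nr4a2 had 10.29, 10.19, 9.35 and 9.07 in isoform A cells and 10.37, 10.42, 11.03 and 10.70 in isoform B cells without overlap (-0.90 ± 0.23, adjusted p = 0.110). Within mice 1 and 2 it differed by only -0.09 and -0.23, and without the isoform A arrays of mice 3 and 4 the list median was -0.01. Of 19 DNA replication and mitosis genes 16 lay below 0 with a median of -0.13, and none passed. E2f1, a transcription factor of the cell cycle, came closest at -0.49 ± 0.10 (adjusted p = 0.0573). The list median was -0.14, -0.14 and -0.27 within mice 1 to 3 and 0.00789 within mouse 4, where 8 of 19 lay below 0. It was -0.12 without the isoform A arrays of mice 3 and 4.

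The lists of stress response, glycolysis, nutrient transport, sterol and interferon genes held no call. Of 15 integrated stress response genes 13 lay above 0 with a median of 0.12, with Ppp1r15a, which encodes the phosphatase subunit GADD34, at 0.27 ± 0.08 (adjusted p = 0.144). Of 22 type I interferon-stimulated genes 13 lay above 0 with a median of 0.05. The median of 9 MHC class II pathway genes was -0.67 within mouse 1 and 0.59 within mouse 4, so these mice lay on opposite sides of 0. Of 18 matrix and protease genes the collagenase Mmp13 differed most, by 0.96 ± 0.25 (adjusted p = 0.110), positive in each mouse. Of 17 glycolysis genes the lactate exporter Slc16a3 (0.45, adjusted p = 0.0927) was nearest the threshold. The 18 splicing regulators had a median of -0.00228 and 9 members on each side of 0. None of 20 proximal T cell receptor signalling genes, 14 T helper lineage factors, 17 CD28 family and inhibitory receptors, or 18 naive state and homing genes passed. Nor did any of 7 mRNA decay factors, 11 NFAT and calcineurin genes, 11 nutrient transporters, 14 sterol genes, 16 chaperones, 17 ribosome biogenesis genes or 10 interferon gamma-inducible GTPases. Of 9 housekeeping genes 8 lay below 0 (5 with median scaling), with the actin gene Actb at -0.12, -0.01, -0.63 and -0.80 within mice 1 to 4 (-0.39 ± 0.15, adjusted p = 0.259).

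**Figure D5:**
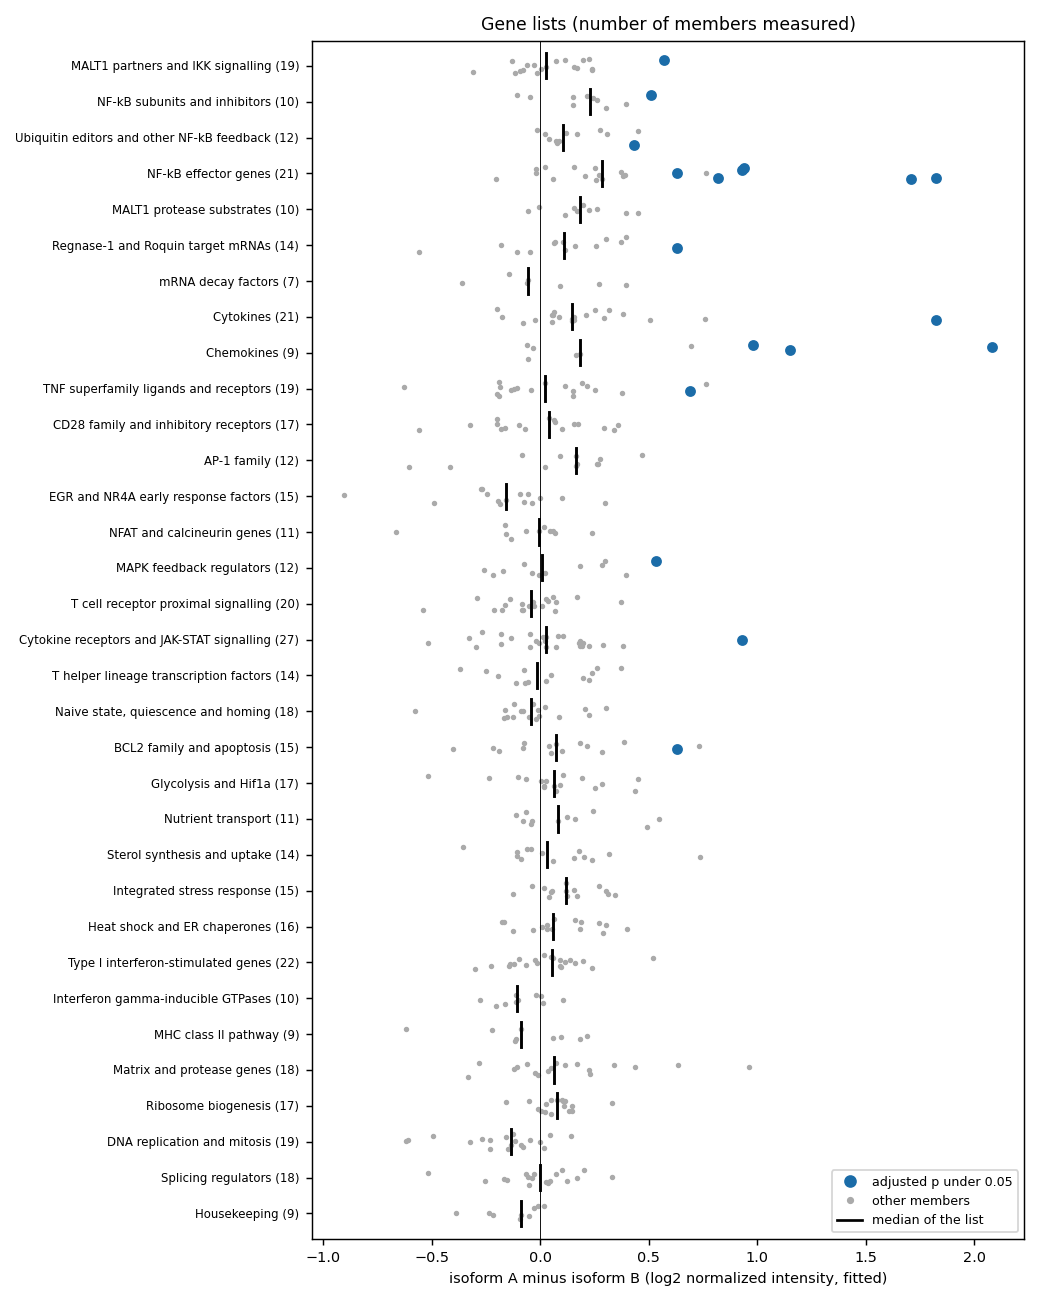
Fitted difference isoform A minus isoform B (log2, x axis) of each measured member of 33 gene lists (y axis, number measured in brackets). Large blue points passed an adjusted p of 0.05, grey points did not, and black bars are list medians. The 14 listed genes past the threshold, some in more than 1 list, all lie to the right of 0.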

How the data were processed

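Total RNA of 16 samples, 1 per mouse and group, was hybridised to 1-colour Illumina bead arrays with biotin-labelled cRNA, per the labels' protocols. The deposited unnormalized intensity values are linear mean bead signals, made by the authors with GenomeStudio 2011.1, per the submitters' processing notes, and a detection p-value stands beside each, per the file headers. The authors' deposited value table holds background-subtracted linear intensities of the same arrays with an unstated normalization (column medians 8.07 to 8.11, rank order of probes unchanged) and was an alternative.

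These signals were background-corrected by normexp using the detection p-values, an offset of 16 was added, and arrays were quantile normalized and put on the log2 scale (limma 3.58.1, R 4.3.3). Probes with a detection p under 0.05 on at least 4 of 16 arrays were kept (12344 of 25697), and the probe with the highest mean stood for a gene. Symbols came from the platform annotation (23978 probes with 1 symbol, 1719 with none, 0 with several).

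The model held 4 group means and the mouse as a block over 16 arrays (9 residual degrees of freedom), with limma's moderated 2-sided test and Benjamini-Hochberg adjustment over 8480 genes. All adjusted p-values are from it. Replicate numbers were taken from the sample titles, where each stands for 1 mouse by its mouse label, and so pair the arrays. The description field numbers most samples otherwise and was not used. Once group means were subtracted, the mean correlation was 0.289 within a mouse (0.131 to 0.417, 24 pairs) and -0.0962 between mice of other groups (72 pairs). Subtracting group means ties the second value to the first with the opposite sign, so it is no separate result. In simulated data on 8480 genes, 58% of 50 genes changed by 0.5, 95% of 100 changed by 1 and 100% of 50 changed by 2 were recovered. False calls made up 4.92% of the calls there. These shares describe the simulated data and not the real arrays.

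The comparison, the gene lists and the named genes were chosen with earlier results of these data known. Named were the 15 largest differences in each direction among genes past the threshold with 1 sign in all mice, up to 4 members of each list with the lowest p (all past it where more passed), Malt1 and cell markers. Other genes past the threshold, and those in the paragraph on arrays that stand apart, were named after their values were seen. A probe below background on a whole group gives a bound, set against the lowest signal above background on each array. Alternatives changed the block, arrays, background, scaling, filter, offset, probe rule and weights.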

Additional observations from a re-analysis of the deposited data

Results flagged for a closer look

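In the 46 genes past the threshold, each group of 4 arrays was searched for 1 array far from the other 3, and 4 of 92 groups held one, where chance gives about 1 in 20 groups. Cdk5r1 read 8.733 on the isoform B array of mouse 2, against 8.576 to 8.584 on the other isoform B arrays. Cd83 read 8.526 on the isoform B array of mouse 4, against 8.262 to 8.286. Card10 read 6.748 on the isoform B array of mouse 2, against 6.427 to 6.455. B3gat3, a glucuronyltransferase, read 6.355 on the isoform A array of mouse 3, against 5.998 to 6.056. In Cdk5r1 and Cd83 the odd array lay on the side of isoform A, and in Card10 it lay on the far side from isoform A.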

How the results depend on the processing

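Each number here is a count of genes past the threshold. For isoform A minus isoform B (46 genes), the fit with no replicate block, that is without the pairing by mouse, gave 18, the 8 arrays alone 0, the 12 stimulated arrays 3, no background correction 105, median scaling 19 (17 higher, 2 lower, against 34 and 12), an offset of 50 gave 88, mice 1 and 2 alone 1 (Il23a) and mice 3 and 4 alone 140 (55 higher, 85 lower). Without the isoform A arrays of mice 3 and 4, an alternative chosen after seeing the data, it was 6. Leaving out 1 mouse or 1 of those arrays gave 0 (without mouse 2, 1191 at an unadjusted p under 0.05) to 32. For isoform B minus mock (338 genes), the counts were 158 with no replicate block, 190 with median scaling, 39 in mice 1 and 2, 51 in mice 3 and 4 and 153 to 329 on leaving out 1 mouse or array. For isoform A minus mock (745 genes), they were 412, 393 and 124 with no replicate block, with median scaling and in mice 1 and 2, 189 without the isoform A arrays of mice 3 and 4, and 239 (without mouse 3) to 641 on leaving out 1 mouse or array. Counts under the other alternatives stayed within 1.5 times. The 46 genes had 916 values over 20 alternatives, of which none changed sign, 409 passed and 507 did not. With 1 sign in all 4 mice, the alternatives that left out mice could not change the sign. The 8 arrays alone leave fewer degrees of freedom, but the cause of that shift and of the others was not tested. Medians near 0 changed sign under some alternatives in the NFAT, MAPK feedback, proximal receptor signalling, T helper factor, splicing and erythroid marker lists. The number of arrays limits the precision.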

Other observations

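Several of the largest differences over all genes did not pass and came from the isoform A arrays of mice 3 and 4. They were named after their values were seen. Bach1, a repressor of the heme oxygenase gene, differed by 0.10, 0.33, -2.23 and -3.28 within mice 1 to 4 (mean -1.27, adjusted p = 0.263). Zc3h13, a subunit of the RNA adenosine methylation machinery, differed by 0.08, 0.31, -1.86 and -3.35 (adjusted p = 0.295). Ddx6, an RNA helicase of P-bodies, differed by -0.02, 0.13, -1.55 and -2.67 (adjusted p = 0.234). Ezh2, the Polycomb methyltransferase, differed by -0.23, 0.42, -1.73 and -2.48 (adjusted p = 0.325). The adjusted p-values are from limma, and the signs differed between mice in all 4 genes. Across genes, which are not independent replicates, the differences of mice 3 and 4 correlated with an r of 0.444, and those of the other pairs of mice with 0.032 to 0.175. Mice 1 and 2 also differed from mice 3 and 4 in the highest raw intensity, at 34329 to 38404 against 41735 to 43710 in all groups. The part of array quality in these values was not tested.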
